A study of Mus musculus with 6 samples.

Results

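The carboxylesterases (Ces), alcohol dehydrogenases (Adh), aldehyde dehydrogenases (Aldh), flavin-containing monooxygenases (Fmo) and aldo-keto reductases of family 1 (Akr1) were followed in RNA from palmitate-treated mouse hepatocytes. Members were protein-coding genes of the deposited expression table carrying a name of these 5 families, 68 of 57180 genes in all, namely 19 Ces, 6 Adh, 20 Aldh, 7 Fmo and 16 Akr1 genes. Hepatocytes were purified from male mice by collagenase perfusion and cultured with 10% serum and 0.1 µM dexamethasone, and both groups were given the saturated fatty acid palmitate at 0.1 mM for 24 h. The LOXP group (n = 3) came from mice carrying the floxed STING allele, and the KO group (n = 3) from STINGLKO mice, in which an Albumin-Cre transgene, active in hepatocytes, was crossed to the same allele. Both groups received palmitate, so the comparison is KO over LOXP under palmitate, and an untreated arm is not part of it. The sources used here do not say whether the 3 libraries of a group were from separate mice, so p-values measure the spread between these libraries.

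*Sting1*, the targeted gene, had 19, 16 and 23 read counts in LOXP replicates 1 to 3 and 24, 23 and 15 in KO replicates 1 to 3. The ranges overlapped (log2 fold change −0.08 ± 0.30 SE, edgeR quasi-likelihood adjusted p = 0.883), and LOXP and KO below therefore mean the libraries labelled so. The paper reports from RT-PCR of purified hepatocytes that *sting* mRNA was present and was lost in knockout cells. That is another measure than these few read counts over the whole gene. Counted reads ran from 14726983 to 18536985 per library. Of the hepatocyte markers, *Alb* stood at a mean of 7670 FPKM (fragments scaled to gene length and counted reads) in the LOXP libraries and 6541 in the KO libraries.

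These enzymes carry out the first oxidative, reductive or hydrolytic step on many drugs, dietary compounds and lipids, and the liver is their main site. Carboxylesterases, in the endoplasmic reticulum of hepatocytes, split ester and amide bonds of drugs and of stored triglyceride. Alcohol dehydrogenases oxidise alcohols such as ethanol and retinol to aldehydes, which aldehyde dehydrogenases turn into acids. Flavin-containing monooxygenases add oxygen to nitrogen, sulphur or carbonyl centres, and aldo-keto reductases reduce aldehydes and ketones, those of steroids and sugars included.

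Of the 68 members, 47 had enough reads for the test and 21 did not, and 14 of the 47 were lower and 5 higher in KO at an adjusted p under 0.05 (edgeR quasi-likelihood test, Benjamini-Hochberg over all 14151 genes tested). Among all genes tested, 11.6% were called lower and 11.5% higher. Members called lower thus made up 29.8% of those tested and members called higher 10.6%. The median log2 fold change was −0.19 over the 47 members and −0.00 over all genes tested, and 34 of the 47 lay below 0. A stricter call, used in the study for its differentially expressed genes, also asks for an absolute log2 fold change above 1 and a mean above 1 FPKM in a group. It was met by 4 members, all lower in KO, namely *Fmo5*, *Ces1g*, *Aldh1b1* and *Akr1c20*, and by no member in the higher direction (0 also at an unadjusted p under 0.05 and with DESeq2), against 1.49% of all genes tested in the lower direction and 0.558% in the higher. Without LOXP replicate 2, LOXP replicate 3 or KO replicate 1, the members called lower numbered 9. Without KO replicate 2 the members called higher numbered 2, and without LOXP replicate 3 or KO replicate 3 they numbered 3. The groups did not overlap in 22 members lower and 7 members higher in KO, while the share among all genes tested was 20.3% and 20.4%. Each of the 19 called members reached the smallest p, 0.1, that an exact two-sided permutation test of 3 against 3 libraries allows. Any gene whose groups do not overlap reaches it, and the 19 were picked by a test on these same libraries.

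**Figure D1:**
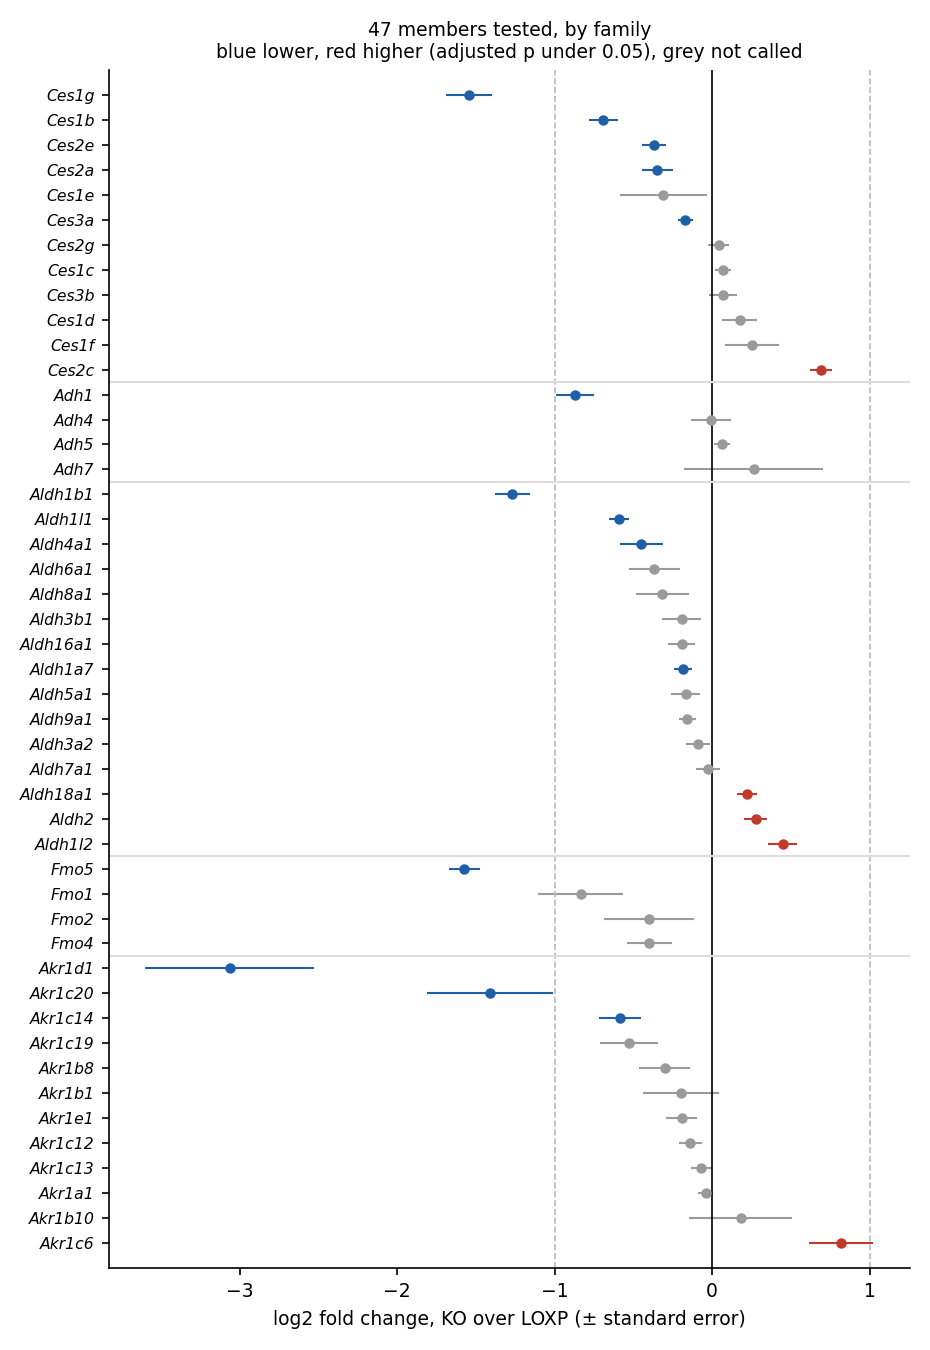
Log2 fold change of KO over LOXP (horizontal axis) with its standard error for the 47 members tested, one line each, grouped from top to bottom as Ces, Adh, Aldh, Fmo and Akr1. Blue marks the 14 members called lower, red the 5 called higher and grey the 28 not called, and dashed lines stand at −1 and 1. Values left of −1 belong to Ces1g, Aldh1b1, Fmo5, Akr1d1 and Akr1c20.

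Of the cell type markers, those of hepatocytes were mostly lower in KO. Of 15 hepatocyte markers tested, 10 were called lower and 1 higher, with a median log2 fold change of −0.45. Their summed level was 11401 to 11864 FPKM in LOXP and 9791 to 9936 FPKM in KO. Of the 16 hepatocyte markers listed, *G6pc1* was not matched by name and was left out. For this and the following marker lists, the share of all genes tested was 11.6% called lower and 11.5% called higher. Macrophage markers summed to 66.8 to 83.7 FPKM in LOXP and 53.1 to 62.8 FPKM in KO (2 of 13 lower, 0 higher, 1 at an unadjusted p under 0.05 and by DESeq2), endothelial markers to 32.5 to 34.5 and 29.7 to 32.8 FPKM (1 of 9 lower, 0 higher by either tool), and stellate cell markers to 10.4 to 12.2 and 12.2 to 12.96 FPKM (0 of 8 called by edgeR or DESeq2, 1 at an unadjusted p under 0.05). The macrophage marker *Cd68*, the largest part of its sums, was at 37.5 ± 2.59 FPKM in LOXP and 21.1 ± 1.66 FPKM in KO (log2 fold change −0.87). *Mpeg1* was also called lower (−0.69). Of the 13 macrophage markers tested, 8 lay below 0 and 5 above. Those above were *Cd5l* (0.94), *Vsig4* (0.20), *Lyz2* (0.18), *Clec4f* (0.12) and *Marco* (0.05), none of them called by edgeR. Cholangiocyte markers summed to 19.9 to 23.2 FPKM in LOXP and 10.4 to 11.7 FPKM in KO (2 of 3 tested lower, 1 higher). *Sox9* (log2 fold change −0.87) and *Spp1* (−2.04) were the lower ones, *Krt19* was higher, at 0.888 ± 0.308 FPKM in LOXP and 1.61 ± 0.153 in KO (log2 fold change 0.82, edgeR adjusted p = 0.0479), and the defining marker *Epcam* was at 0.109 and 0.133 FPKM. Lymphocyte and neutrophil markers stayed at or below 0.276 FPKM in every library, with 7 of 8 and 3 of 5 at 0 counts in every library. In bulk RNA a smaller number of cells and less RNA per cell cannot be told apart, and the part of the markers in the results below was not tested.

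The carboxylesterases divided. Of 12 tested, 5 were called lower (*Ces1g*, *Ces1b*, *Ces2e*, *Ces2a* and *Ces3a*) and 1 higher (*Ces2c*), with a median log2 fold change of −0.06. All 19 lie on chromosome 8, in a Ces1 group and a group of Ces2, Ces3 and Ces4 genes with *Ces5a* between them, and both groups held called genes. The family's level, summed over its genes, was 283 ± 3.73 FPKM in LOXP and 293 ± 5.27 FPKM in KO (SD, n = 3). Since the genes are close relatives, the stretch of coding sequence around the active-site serine is shown for the members described below (GENCODE M21, GRCm38, transcript sense, 5′ to 3′), with the codons of the serine motif in capitals.
Ces1b: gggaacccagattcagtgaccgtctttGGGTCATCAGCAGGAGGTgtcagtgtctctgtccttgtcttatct
Ces1c: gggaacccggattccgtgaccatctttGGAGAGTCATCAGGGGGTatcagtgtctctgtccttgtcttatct
Ces1g: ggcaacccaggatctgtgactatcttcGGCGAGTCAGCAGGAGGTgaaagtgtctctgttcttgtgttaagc
Ces2c: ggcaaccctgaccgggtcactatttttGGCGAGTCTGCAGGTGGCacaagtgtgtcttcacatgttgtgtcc
Ces2e: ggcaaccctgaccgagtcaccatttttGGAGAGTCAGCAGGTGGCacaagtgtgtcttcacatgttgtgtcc
Ces3a: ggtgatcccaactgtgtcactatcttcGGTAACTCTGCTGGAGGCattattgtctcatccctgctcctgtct
Ces3b: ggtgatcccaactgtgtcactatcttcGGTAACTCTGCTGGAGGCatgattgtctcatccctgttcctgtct

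Over these 72 bases *Ces2c* and *Ces2e*, which were called in opposite directions, differed at 4 positions, *Ces3a* and *Ces3b* at 2, and *Ces1g* and *Ces2c* at 24. Over whole coding sequences *Ces2c* and *Ces2e* were 83.6% identical, *Ces1b* and *Ces1c* 88.8%, and *Ces3a* and *Ces3b* 95.3%. Reads from such genes can be assigned to the wrong relative. The share of a gene's 75-base windows found unchanged in another gene or pseudogene was 25.9% for *Ces2c*, 18.3% for *Ces3a*, 15.4% for *Ces3b*, 14.8% for *Ces2a*, 6.73% for *Ces1c* and 4.50% for *Ces1b*. Of the 492 shared windows of *Ces2c*, 472 occur in the pseudogene *Ces2d-ps*. Those of *Ces2a* occur in the pseudogene *Gm7208*, which had 11 counts in all. *Ces2e* shared 9 windows, all with *Ces2g*. The paired reads of the study were longer than these windows.

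*Ces1g* (ENSMUSG00000057074, GRCm39 chr8:94028997-94063936), a lipid hydrolase of hepatocytes, was at 5.27, 5.00 and 4.81 FPKM in LOXP and 1.46, 1.85 and 1.97 FPKM in KO. The 3 KO libraries were all below the LOXP libraries in CPM (counts scaled to library size). The fit gave a 2.92-fold lower level of *Ces1g* in KO (log2 fold change −1.54 ± 0.14 SE, edgeR adjusted p = 0.000286). *Ces1b*, 222 kb before it in the same group, was at 10.3, 10.6 and 10.7 FPKM in LOXP and 7.06, 6.73 and 6.25 FPKM in KO, again without overlap (log2 fold change −0.69 ± 0.09, adjusted p = 0.00141). *Ces1c*, which encodes the esterase secreted into mouse plasma and was the most abundant Ces gene, was not called (101 ± 3.38 FPKM in LOXP, 109 ± 2.39 in KO, log2 fold change 0.07 ± 0.05, adjusted p = 0.392). When the counts of *Ces1b* and *Ces1c* were summed, so that a read placed on the wrong one of them does not matter, the sum had a log2 fold change of 0.02 (adjusted p = 0.788), with 26525 counts from *Ces1c* and 1616 from *Ces1b*.

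The other Ces1 genes tested, *Ces1d* and *Ces1f*, both triglyceride hydrolases, and *Ces1e*, were at 1.07 to 3.84 FPKM in mean and were not called, with log2 fold changes of 0.18, 0.25 and −0.31 and overlapping groups. The 2 remaining Ces1 genes, *Ces1a* and *Ces1h*, had 7 and 10 counts in all 6 libraries together.

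*Ces2c* (ENSMUSG00000061825, GRCm39 chr8:105573700-105581115), an acylcarnitine hydrolase, was at 29.9, 32.4 and 29.8 FPKM in LOXP and 48.2, 52.0 and 52.4 FPKM in KO. Every KO library was above every LOXP library, 1.61-fold in mean CPM (log2 fold change 0.69 ± 0.07, edgeR adjusted p = 0.000366). With the counts of the neighbouring pseudogene *Ces2d-ps*, 52 in all, added, the log2 fold change was 0.68. Its neighbours went the other way or were not called. *Ces2e* was at 14.9, 14.2 and 16.3 FPKM in LOXP and 11.4, 12.6 and 11.9 in KO (log2 fold change −0.37 ± 0.08, adjusted p = 0.0112). *Ces2a*, a diglyceride hydrolase, was at 10.6, 12.3 and 11.5 FPKM in LOXP and 9.96, 9.41 and 8.28 in KO (log2 fold change −0.35 ± 0.10, adjusted p = 0.0379), and its call was lost when any library but LOXP replicate 1 was left out (adjusted p up to 0.120). *Ces2g* was at 7.42 ± 0.137 FPKM in LOXP and 7.83 ± 0.00928 in KO and was not called (log2 fold change 0.04). *Ces2c* therefore stood at 2.04 ± 0.230 times the FPKM of *Ces2e* within the LOXP libraries and 4.25 ± 0.133 times within the KO libraries, a pair chosen after its values were seen.

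*Ces3a*, the second most abundant Ces gene, was at 84.5, 84.3 and 86.2 FPKM in LOXP and 76.7, 77.0 and 78.7 in KO. The groups did not overlap, but the difference was small (log2 fold change −0.17 ± 0.05, edgeR adjusted p = 0.0309). Its call was lost when any library but LOXP replicate 1 was left out (adjusted p up to 0.112) and when its counts were summed with those of *Ces3b* (log2 fold change −0.14, adjusted p = 0.0684). *Ces3b*, with overlapping groups at 9.71 ± 0.486 and 10.4 ± 1.02 FPKM, was not called. *Ces2b*, *Ces2f*, *Ces2h*, *Ces4a* and *Ces5a* had between 0 and 4 counts in all libraries together.

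**Figure D2:**
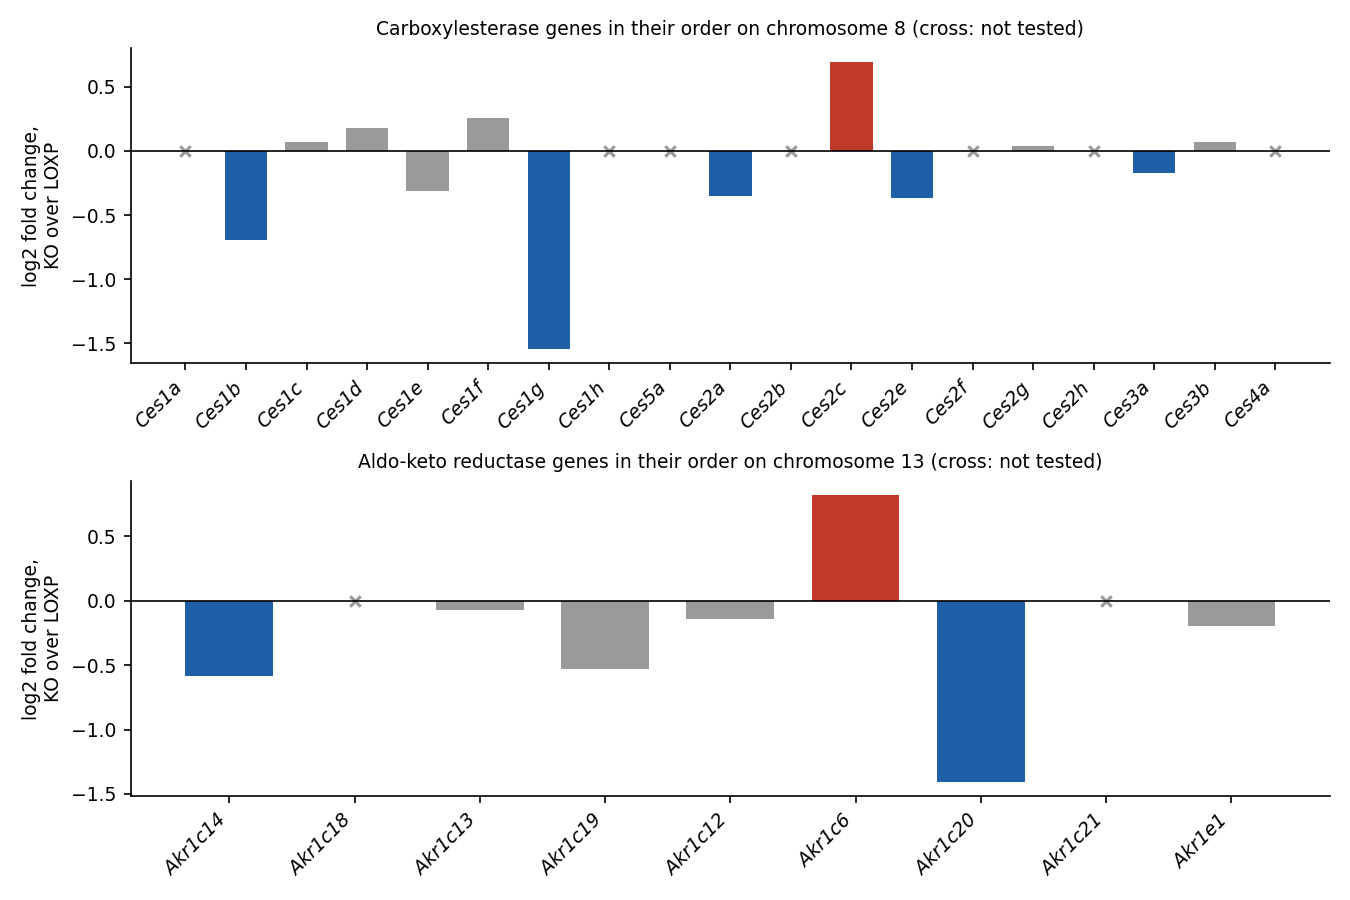
Log2 fold change of KO over LOXP (vertical axis, bars from 0) for the 19 carboxylesterase genes of chromosome 8 (top) and the 9 aldo-keto reductase genes of chromosome 13 (bottom), in chromosome order and not to scale. Blue bars were called lower, red higher and grey not called, and a cross marks a gene with too few reads to test. Ces2c at 0.69 stands between Ces2a at −0.35 and Ces2e at −0.37, and Akr1c6 at 0.82 stands beside Akr1c20 at −1.41.

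Among the alcohol dehydrogenases, 1 of the 4 genes tested was called lower and 0 higher (0 also at an unadjusted p under 0.05 and with DESeq2), and the family's median log2 fold change was 0.03. *Adh1* (ENSMUSG00000074207, GRCm39 chr3:137966752-137996459), the main ethanol-oxidising enzyme of liver and also active on retinol, was at 18.9, 20.4 and 26.0 FPKM in LOXP and 12.6, 12.6 and 11.4 FPKM in KO. LOXP replicate 3 was the highest, and each LOXP library was above each KO library, a 1.83-fold lower mean in KO (log2 fold change −0.87 ± 0.12, edgeR adjusted p = 0.00165). Without LOXP replicate 3 the value was −0.73 and the call stayed. *Adh5*, the glutathione-dependent formaldehyde dehydrogenase present in most tissues, was at 24.5 ± 0.277 FPKM in LOXP and 26.2 ± 0.544 FPKM in KO and was not called (log2 fold change 0.06 ± 0.05, adjusted p = 0.443). *Adh4* was at 7.85 ± 1.16 and 8.01 ± 0.78 FPKM (log2 fold change −0.01 ± 0.13, adjusted p = 0.977), and *Adh7*, an epithelial retinol-oxidising enzyme, at 0.182 and 0.224 FPKM. *Adh1* thus gave 40.1% of the summed Adh FPKM in LOXP and 26.2% in KO, and *Adh5* 45.1% and 56.2%. *Adh6a* and *Adh6b* had no counts.

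Of the 20 aldehyde dehydrogenases, 15 were tested, 4 were called lower (*Aldh1b1*, *Aldh1l1*, *Aldh4a1* and *Aldh1a7*) and 3 higher (*Aldh1l2*, *Aldh2* and *Aldh18a1*), with a median log2 fold change of −0.19. *Aldh1b1* and *Aldh2* are both mitochondrial enzymes that oxidise acetaldehyde, and they were called in opposite directions. *Aldh1b1* (ENSMUSG00000035561, GRCm39 chr4:45799022-45804604) was at 8.44, 8.61 and 8.30 FPKM in LOXP and 3.31, 3.28 and 4.19 FPKM in KO, 2.41-fold lower in mean CPM and without overlap (log2 fold change −1.27 ± 0.11, edgeR adjusted p = 0.000228). *Aldh2* (ENSMUSG00000029455, GRCm39 chr5:121704090-121731887), the most abundant of the 20, was at 74.9, 84.5 and 87.9 FPKM in LOXP and 98.1, 107 and 102 FPKM in KO. The KO libraries were above the LOXP libraries (log2 fold change 0.28 ± 0.07, adjusted p = 0.0267), but the call was lost without KO replicate 2 or without KO replicate 3 (adjusted p up to 0.0982). Within a library *Aldh2* was at 9.76 ± 0.862 times the FPKM of *Aldh1b1* in LOXP and 28.8 ± 4.12 times in KO, a pair chosen after its values were seen.

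*Aldh1l1* and *Aldh1l2*, the cytosolic and the mitochondrial formyltetrahydrofolate dehydrogenase of one-carbon metabolism, were also called in opposite directions. *Aldh1l1* (GRCm39 chr6:90463409-90577185) was at 11.5, 11.6 and 11.6 FPKM in LOXP and 7.49, 7.83 and 8.26 in KO, with a gap between the groups wider than the range of either (log2 fold change −0.59 ± 0.06, edgeR adjusted p = 0.000561). *Aldh1l2* (GRCm39 chr10:83323314-83370004) was at 2.22, 2.30 and 2.40 FPKM in LOXP and 2.98, 3.04 and 3.65 in KO (log2 fold change 0.45 ± 0.09, adjusted p = 0.0107). *Aldh1l2* overlaps *Nopchap1*, which had 6164 counts against 2994 for *Aldh1l2* and was also higher in KO (log2 fold change 0.37, adjusted p = 0.00486). Whether reads were counted by strand is not given in the sources used here, and reads of overlapping genes cannot then be told apart.

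*Aldh4a1* and *Aldh18a1* act at opposite ends of proline metabolism, *Aldh4a1* in its breakdown and *Aldh18a1* in its synthesis. *Aldh4a1* was at 3.59, 4.05 and 4.43 FPKM in LOXP and 2.46, 3.40 and 3.16 in KO (log2 fold change −0.45 ± 0.14, edgeR adjusted p = 0.0455). *Aldh18a1* was at 21.5, 21.8 and 21.3 FPKM in LOXP and 23.9, 26.3 and 26.9 in KO (log2 fold change 0.22 ± 0.06, adjusted p = 0.0373). Neither call held throughout. That of *Aldh4a1* was lost without LOXP replicate 2 or 3 or KO replicate 1 or 3 (adjusted p up to 0.135), and 43.8% of its 75-base windows also lie in the overlapping gene *Gm21969*, with which its summed counts gave a log2 fold change of −0.36 (adjusted p = 0.0294). That of *Aldh18a1* was lost when any library but KO replicate 1 was left out (adjusted p up to 0.140), and a processed pseudogene inside it, *Gm15801*, held 3247 counts against its 12647.

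*Aldh1a7*, a cytosolic aldehyde dehydrogenase, was at 60.6, 63.1 and 63.4 FPKM in LOXP and 57.1, 54.1 and 57.5 in KO. The difference was small (log2 fold change −0.19 ± 0.06, edgeR adjusted p = 0.0480), and its call was lost when any library but LOXP replicate 1 was left out (adjusted p up to 0.174). The 8 other members tested were not called. Their log2 fold changes were all below 0, from −0.37 for *Aldh6a1*, of valine breakdown, and −0.32 for *Aldh8a1* to −0.09 for *Aldh3a2*, the fatty aldehyde dehydrogenase, and −0.03 for *Aldh7a1*, of lysine breakdown. *Aldh6a1* was at 6.81, 7.14 and 7.21 FPKM in LOXP and 6.16, 6.55 and 4.07 in KO, so that KO replicate 3 was far below the other KO libraries (adjusted p = 0.144). *Aldh9a1*, an enzyme of carnitine synthesis, was at 25.4 ± 0.452 and 23.4 ± 0.254 FPKM without overlap (log2 fold change −0.16 ± 0.06, adjusted p = 0.0806). The summed level of the family's genes counted here was 275 ± 11.1 FPKM in LOXP and 279 ± 5.23 FPKM in KO. *Aldh1a2*, *Aldh1a3*, *Aldh3a1*, *Aldh3b2* and *Aldh3b3* had between 1 and 6 counts in all.

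In all 4 flavin-containing monooxygenases tested each KO library was below each LOXP library in normalised CPM, with a median log2 fold change of −0.62, and 1 of them was called. Among all genes tested, 20.3% had groups apart in this direction and 11.6% were called lower. *Fmo5* (ENSMUSG00000028088, GRCm39 chr3:97536120-97562598), an unusual member that inserts oxygen next to carbonyl groups and uses NADPH, had the smallest adjusted p of all 47 members tested. It was at 6.05, 6.34 and 7.11 FPKM in LOXP and 2.35, 1.95 and 2.43 FPKM in KO. The KO libraries were all far below the LOXP libraries, with a 2.98-fold lower level in KO by the fit (log2 fold change −1.57 ± 0.10, edgeR adjusted p = 4.95e-05).

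The other 3 lie together on chromosome 1 and were much less abundant. *Fmo4* was at 1.20, 1.14 and 1.14 FPKM in LOXP and 0.990, 0.818 and 0.904 in KO (log2 fold change −0.40 ± 0.14, edgeR adjusted p = 0.0777). *Fmo1*, a drug-metabolising form, was at 0.616, 0.510 and 0.696 FPKM in LOXP and 0.309, 0.235 and 0.506 in KO, so that KO replicate 3 lay just under the lowest LOXP library (log2 fold change −0.84 ± 0.27, adjusted p = 0.0577). *Fmo2*, best known from lung, had 14 to 19 counts per LOXP library and 11 to 16 per KO library, so that its difference rests on few reads (log2 fold change −0.40 ± 0.29, adjusted p = 0.364). None of these 3 passed the test over all 6 libraries described above, while *Fmo1* was called by DESeq2 (adjusted p = 0.0311) and, in edgeR, without KO replicate 3 (log2 fold change −1.19, adjusted p = 0.0144). No Fmo gene tested lay above 0. *Fmo6* and *Fmo9* had no counts. The family's summed level was 8.38 ± 0.598 FPKM in LOXP and 3.60 ± 0.447 FPKM in KO, and *Fmo5* made up 77.6% of it in LOXP and 62.4% in KO.

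Of the 16 aldo-keto reductases, 12 were tested, 3 were called lower (*Akr1d1*, *Akr1c20* and *Akr1c14*) and 1 higher (*Akr1c6*), with a median log2 fold change of −0.20. The abundant genes were not among those called. *Akr1a1*, the aldehyde reductase that also serves ascorbate synthesis in mice, was at 107 ± 2.29 FPKM in LOXP and 107 ± 3.94 FPKM in KO (log2 fold change −0.04 ± 0.05, edgeR adjusted p = 0.594) and made up 57.5% and 59.5% of the family's summed FPKM. *Akr1c13* was at 31.8 ± 0.249 and 31.1 ± 1.99 FPKM (log2 fold change −0.07 ± 0.07, adjusted p = 0.517) and its relative *Akr1c12* at 28.9 ± 1.36 and 26.9 ± 1.27 FPKM (log2 fold change −0.14 ± 0.07, adjusted p = 0.209). These last are 96.2% identical in coding sequence, and their summed counts gave a log2 fold change of −0.10 (adjusted p = 0.306).

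*Akr1d1* (ENSMUSG00000038641, GRCm39 chr6:37507108-37545750), the steroid reductase of bile acid synthesis, had the largest fold change of the 47 members at a very low level. It had 40, 16 and 21 counts in LOXP and 4, 5 and 1 in KO, which is 0.373 to 0.864 FPKM and 0.0205 to 0.0926 FPKM. The groups were well apart (log2 fold change −3.06 ± 0.53, edgeR adjusted p = 0.00480). The pooled counts of 77 and 10 gave a KO over LOXP ratio of 0.115, with an exact 95% interval for counting error of 0.0529 to 0.222. Its level stayed under 1 FPKM, and on the log2(FPKM + 1) scale the difference was −0.54.

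*Akr1c14* (GRCm39 chr13:4099011-4140688), a hydroxysteroid dehydrogenase, was at 3.69, 3.38 and 3.41 FPKM in LOXP and 1.94, 2.44 and 2.76 in KO, lower in each KO library (log2 fold change −0.59 ± 0.13, edgeR adjusted p = 0.0154). *Akr1c6* and *Akr1c20* are neighbours and close relatives on chromosome 13 and were called in opposite directions. The first 120 coding bases of both are shown (GENCODE M21, GRCm38, 5′ to 3′), with the positions where they differ in capitals, because they bear on whether the reads can be told apart.
Akr1c6: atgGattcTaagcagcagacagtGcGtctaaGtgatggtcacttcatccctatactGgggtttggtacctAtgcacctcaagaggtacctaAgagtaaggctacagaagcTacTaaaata
Akr1c20: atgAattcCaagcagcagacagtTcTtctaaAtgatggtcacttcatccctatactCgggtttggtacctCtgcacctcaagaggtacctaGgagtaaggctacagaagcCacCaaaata

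These stretches differ at 10 of 120 bases. Over the 972 coding bases *Akr1c6* and *Akr1c20* differed at 75, were 92.3% identical and shared no identical run longer than 65 bases. Of the 75-base windows of each transcript, 0% occurred in another gene, so reads of at least this length can be told apart there. *Akr1c6* (ENSMUSG00000021210, GRCm39 chr13:4484305-4507876), an oestradiol dehydrogenase of mouse liver, had 28, 25 and 24 counts in LOXP and 53, 55 and 46 in KO, with every KO library higher (0.651 ± 0.0390 and 1.18 ± 0.133 FPKM, log2 fold change 0.82 ± 0.20, edgeR adjusted p = 0.0216). *Akr1c20* (ENSMUSG00000054757, GRCm39 chr13:4536848-4573344) had 23, 40 and 45 counts in LOXP and 19, 19 and 8 in KO, so that LOXP replicate 1 lay close to the KO libraries (1.02 ± 0.345 and 0.390 ± 0.166 FPKM, log2 fold change −1.41 ± 0.40, adjusted p = 0.0364). Both calls rest on few reads. That of *Akr1c6* was lost without LOXP replicate 3, KO replicate 1 or KO replicate 2 (adjusted p up to 0.0752) and with DESeq2, and that of *Akr1c20* when any library but LOXP replicate 1 was left out (adjusted p up to 0.117). On the log2(FPKM + 1) scale the differences were 0.40 and −0.53.

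The other Akr1 genes tested were not called. *Akr1c19* was at 0.873 ± 0.123 FPKM in LOXP and 0.619 ± 0.102 in KO without overlap (log2 fold change −0.53 ± 0.18, edgeR adjusted p = 0.0738). *Akr1b8* was at 7.40, 7.35 and 7.25 FPKM in LOXP and 5.38, 7.62 and 5.22 in KO, where KO replicate 2 lay above all LOXP libraries (log2 fold change −0.30 ± 0.16, adjusted p = 0.216). *Akr1e1*, the anhydrofructose reductase, had a log2 fold change of −0.19, *Akr1b1*, the aldose reductase of the polyol pathway, −0.20 and *Akr1b10* 0.18. Of the windows of *Akr1b1*, 55.4% also occur in pseudogenes, so its value is uncertain. *Akr1b7*, *Akr1c18*, *Akr1c21* and *Akr1cl* had between 0 and 11 counts in all.

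**Figure D3:**
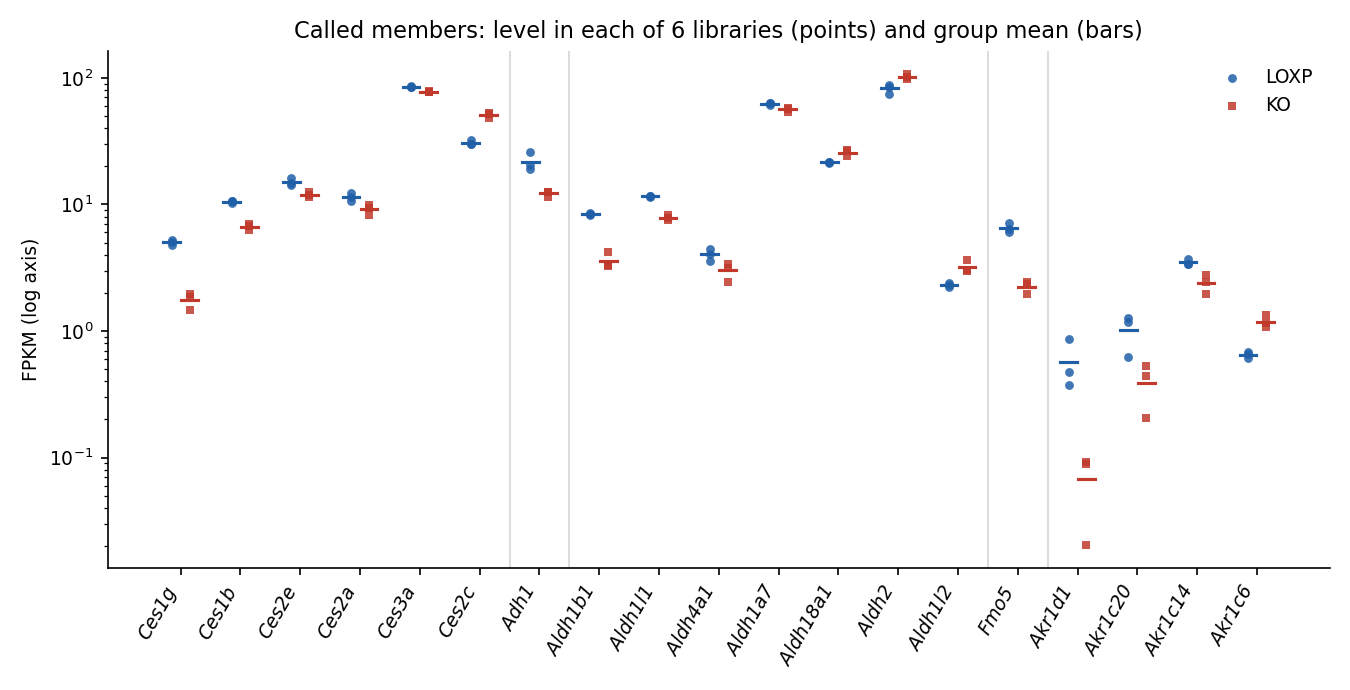
FPKM (vertical axis, log scale) of the 19 called members in each of the 6 libraries, with LOXP as blue circles, KO as red squares and a bar for each group mean, ordered as Ces, Adh, Aldh, Fmo and Akr1 and within a family by fold change. The 2 groups do not overlap in any of the 19, which were picked by a test on these same libraries. In normalised CPM, the groups did not overlap in 20.3% (KO lower) and 20.4% (KO higher) of all genes tested. Levels range from Akr1d1, at 0.0205 FPKM in KO replicate 3, to Aldh2, at 107 FPKM in KO replicate 2.

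Among the members with a mean over 50 FPKM, the called differences, those of *Aldh2*, *Ces3a* and *Aldh1a7*, lay between −0.19 and 0.28 on the log2 scale, while *Ces1c* and *Akr1a1* were not called. The 4 members of the stricter call had LOXP means of 1.02 to 8.45 FPKM. Summed over all 68 members, the level was 807 ± 19.3 FPKM in LOXP and 801 ± 11.003 FPKM in KO. Among the 14 lower calls the lowest library was KO replicate 1 for 7, KO replicate 2 for 2 and KO replicate 3 for 5, and the highest was LOXP replicate 1, 2 and 3 for 3, 5 and 6.

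RefSeq promoters (GRCm38.p6, 250 bases before to 50 after the annotated start) were found for 53 of the 68 members and searched on both strands for 8 short motifs. The letters CCAAT occurred in 32 of the 53, or 60.4%, and in 37.4% of all 32851 promoters of the same length. Members were counted once per gene, with a match in any promoter of the gene, while the share of all was counted per promoter. The shares of members and of all are therefore not in the same unit. CCAAT was present in 9 of 12 genes called lower, 2 of 3 called higher and 13 of 23 tested but not called. TATAAA, the TATA element, occurred in 20.8% of these members and 13.6% of all promoters, and GGGCGG, the GC element, in 22.6% and 35.7%. The core of the antioxidant response element, TGACNNNGC, occurred in 9.43% and 12.4%, the core of the xenobiotic response element, TNGCGTG, in 7.55% and 5.07%, and the core of the interferon-stimulated response element in 3.77% and 3.44%. The HNF4 element CAAAGTCCA and the C/EBP element TTGCGCAA occurred in no member promoter and in 0.475% and 0.183% of all. A match is a run of letters and not a measured binding site, and short motifs such as CCAAT occur often by their length.

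For 3 members of the stricter call and for *Ces2c*, the bases from 130 before to 20 after the start are shown in gene sense (RefSeq, GRCm38.p6), with matched letters in capitals, since these genes had the clearest changes in their families.
Fmo5, chr3:97628889-97629038 plus strand: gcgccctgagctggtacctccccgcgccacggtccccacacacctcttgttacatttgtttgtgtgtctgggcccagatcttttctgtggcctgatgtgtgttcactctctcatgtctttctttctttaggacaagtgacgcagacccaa
Aldh1b1, chr4:45798892-45799041 plus strand: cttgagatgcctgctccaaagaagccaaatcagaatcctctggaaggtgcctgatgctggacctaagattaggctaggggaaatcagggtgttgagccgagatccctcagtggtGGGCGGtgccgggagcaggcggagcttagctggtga
Ces1g, chr8:93337190-93337339 minus strand: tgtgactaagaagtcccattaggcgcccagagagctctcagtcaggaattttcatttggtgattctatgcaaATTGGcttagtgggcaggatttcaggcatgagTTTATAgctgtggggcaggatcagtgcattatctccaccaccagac
Ces2c, chr8:104846938-104847087 plus strand: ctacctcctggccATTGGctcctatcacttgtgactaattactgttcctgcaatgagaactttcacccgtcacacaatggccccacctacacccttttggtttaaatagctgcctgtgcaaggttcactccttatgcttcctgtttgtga

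The window of *Aldh1b1* holds GGGCGG starting 16 bases before the start. That of *Ces1g* holds the reverse complements of CCAAT, starting 58 bases before the start, and of TATAAA, starting 26 bases before it. That of *Ces2c* holds the reverse complement of CCAAT 117 bases before the start, and the 150 bases of *Fmo5* hold none of the 8 motifs. In the longer searched window, outside the bases shown, both *Fmo5* and *Aldh1b1* have a match to CCAAT, and *Fmo5* also has the TATA and the GC element searched for above. These coordinates are of the older GRCm38 build and are not to be set beside the GRCm39 positions of the table.

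Other genes of oxidation, reduction and hydrolysis were counted from a list of 27 genes, all tested. The list held lipid hydrolases such as *Lipc*, and cytochrome P450 genes were not on it. The list was chosen with earlier results of these data known. Of these, 11 were called lower and 3 higher (edgeR), with a median log2 fold change of −0.05. The lower genes with the smallest adjusted p were *Lipc*, hepatic lipase (15.3 ± 1.03 to 7.79 ± 0.124 FPKM, log2 fold change −1.01), *Nqo2*, a quinone reductase (−0.50), and *Maob*, a monoamine oxidase (−0.48). The higher genes were *Nqo1*, a quinone reductase (6.96 ± 0.896 to 15.1 ± 1.08 FPKM, log2 fold change 1.08), *Cbr3*, a carbonyl reductase (0.77), and *Maoa*, a monoamine oxidase (0.31). The genes called lower made up 40.7% of the list, against 11.6% of all genes tested, and those called higher 11.1%, against 11.5%.

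Of 12 transcriptional regulators of these enzymes, 4 were called lower and none higher (edgeR quasi-likelihood test), with a median log2 fold change of −0.27. That is 33.3% lower, against 11.6% of all genes tested, and 0% higher, against 11.5%. This list, too, was chosen with earlier results of these data known. With DESeq2 0 of the 12 were higher, and at an unadjusted p under 0.05 in edgeR 1 was. The xenobiotic receptors *Ahr* (8.94 ± 0.447 FPKM in LOXP, 4.51 ± 0.243 in KO, log2 fold change −1.02 ± 0.08, adjusted p = 8.81e-05) and *Nr1i2*, the pregnane X receptor (9.39 ± 1.40 and 3.72 ± 0.604 FPKM, −1.37 ± 0.15, adjusted p = 0.000497), were lower. So were *Hnf4a*, a hepatocyte transcription factor (34.1 ± 1.999 and 23.2 ± 1.02 FPKM, −0.59 ± 0.06, adjusted p = 0.000338), and *Nr1h4*, the bile acid receptor (−0.54, adjusted p = 0.00939). *Nfe2l2*, which drives antioxidant genes, had a log2 fold change of −0.18 (adjusted p = 0.135) and *Ppara*, the fatty acid receptor, −0.21 (adjusted p = 0.171). Whether a change in a regulator bears on any member was not tested.

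**Figure D4:**
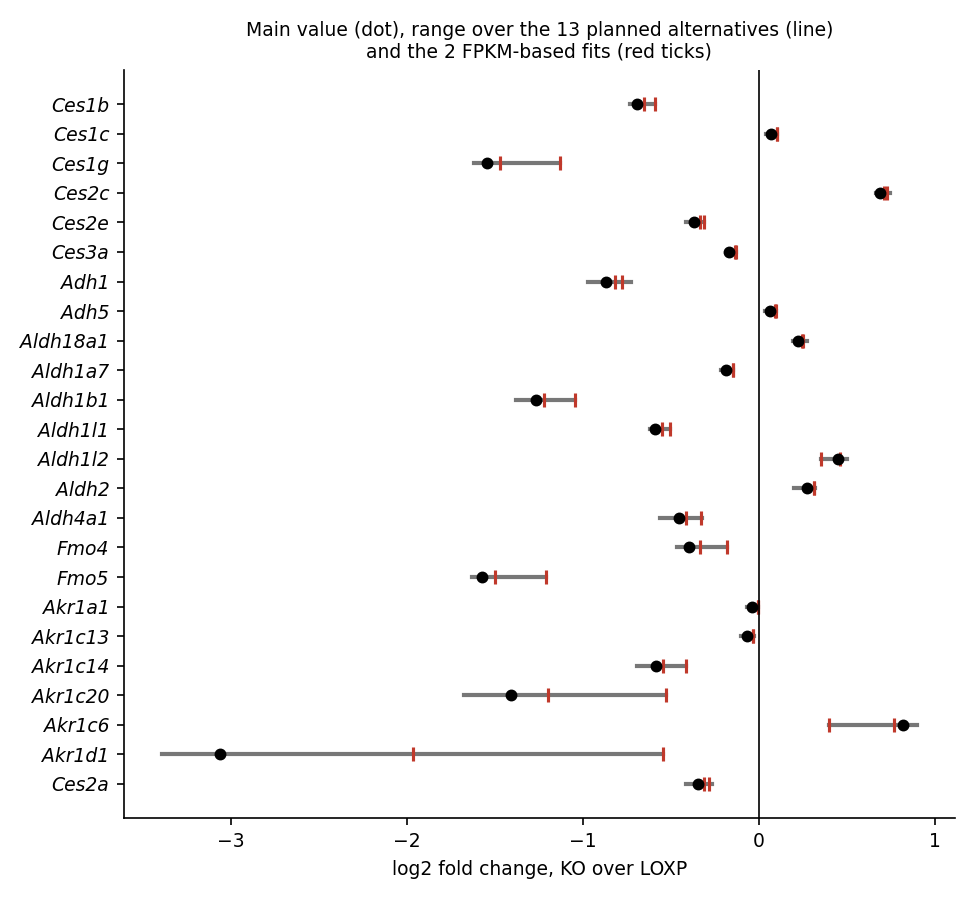
Log2 fold change of KO over LOXP (horizontal axis) of 24 named members, as reported (dot), over 13 other ways of processing the counts (grey line from lowest to highest) and in the 2 fits to FPKM (red ticks). Lines are short for Ces2c and Aldh1l1, and longer for Ces1g, from −1.62 to −1.13, and Fmo5, from −1.63 to −1.21. They are longest for the low-level genes Akr1d1, from −3.39 to −0.54, and Akr1c20, from −1.68 to −0.53.

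The calls of *Fmo5*, *Ces1g*, *Ces1b*, *Ces2c*, *Ces2e*, *Adh1*, *Aldh1b1*, *Aldh1l1*, *Aldh1l2* and *Akr1c14* were made under each of 13 other ways of processing the counts, which were another tool or scaling, other filters, fits to FPKM and each library left out, and that of *Akr1d1* under each of the 12 in which it was tested. Those of *Ces2a*, *Ces3a*, *Aldh1a7*, *Aldh2*, *Aldh4a1*, *Aldh18a1*, *Akr1c6* and *Akr1c20* were not. Of the 13, *Aldh2* was called in 11, *Akr1c6* in 9, *Ces2a* and *Aldh18a1* in 7, *Aldh4a1* in 6, *Ces3a* in 5 and *Aldh1a7* in 3, and *Akr1c20* in 5 of the 12 in which it was tested. The counts of called members moved accordingly, to between 12 and 18 of the 19 when 1 library was left out.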

How the data were processed

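RNA-seq of 6 libraries (3 LOXP, 3 KO) was used. The authors mapped reads with HISAT2, and per the labels' processing notes fastp, StringTie, edgeR and GRCm39 were also used, without versions. Annotation and strand setting are not given in the sources used here. They deposited 1 table of 57180 genes with read counts and FPKM per library. Counts in the deposited table are whole numbers without normalization. FPKM in the deposited table divides them by 1 length per gene and the library's counted reads (checked on 10819 genes, where implied lengths differed between libraries by at most 0.00159%).

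The tests used edgeR 4.0.16 under R 4.3.3 (filterByExpr with minimum count 10, TMM, two-sided quasi-likelihood test, Benjamini-Hochberg over the 14151 genes kept). Errors are SE for log2 fold changes and SD for levels. Exact permutation tests used log2 of CPM plus 1. Steps were tested on simulated data. Libraries of the same group were further apart than sampling of reads gives (chi-square per degree of freedom 7.66 to 16.3). Genes named are, per family, the members of the stricter call, the 3 smallest adjusted p per direction and the 2 most abundant. Other members are given by counts, ranges or short values. Members, gene lists and tests were chosen with earlier results of these data known. Alternatives were DESeq2 1.42.0, upper-quartile factors, 2 other count filters, the replicate number as a block, limma 3.58.1 on log2(FPKM + 1) and log2(FPKM + 0.1), and each library left out in turn. Counts summed with those of a near copy were added after seeing the data. Sequences came from GENCODE M21 and RefSeq (GRCm38), a build other than the table's. Some genes are left unreported.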

Additional observations from a re-analysis of the deposited data

How the results depend on the processing

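Members called lower numbered 9 without a filter on low counts and 9 to 14 when 1 library was left out, and members called higher 2 to 4. The stricter call then gave 3 to 4 lower and 0 higher members. With 1 library left out, counts ran from 3 to 5 lower for Ces, 2 to 4 lower and 1 to 3 higher for Aldh, 1 to 2 lower for Fmo, and 2 to 3 lower and 0 to 1 higher for Akr1. All genes called lower then ran from 1052 to 1515 and higher from 922 to 1510. Without a filter, 3 Ces and 2 Aldh genes were lower. Both fits to FPKM called 2 Aldh genes lower. DESeq2 called 2 Fmo genes lower and 0 Akr1 genes higher. With at least 10 counts in every library 1 Akr1 gene was lower, since *Akr1c20* and *Akr1d1* were then not tested. The median log2 fold change of the members was −0.12 on log2(FPKM + 1), −0.15 on log2(FPKM + 0.1) and −0.22 to −0.16 with 1 library left out. *Sting1* changed sign without LOXP replicate 3 (0.06) or KO replicate 3 (0.11), with a range of −0.26 to 0.11. The sum of *Ces1b* and *Ces1c*, at 0.023, had the opposite sign to *Ces1b* alone, since *Ces1c* gave most of the counts. The cause of the other shifts was not tested.

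With the replicate number as a block, 18 members were called, 17 of them among the 19, and 2 Fmo genes were lower, *Fmo5* and *Fmo1* (log2 fold change −0.87, edgeR adjusted p = 0.0269). Deviations of same-numbered libraries correlated at 0.12, 0.08 and 0.01, and those of libraries with unlike numbers at −0.13 to 0.05. LOXP replicates 1 and 2 correlated best with their own number, while LOXP replicate 3 correlated better with KO replicate 2 (0.05). The numbers were not taken as pairs, but these values do not decide whether they are.

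Having 3 libraries a group limits what could be called. The 21 members not tested had at most 11 counts in all, and differences in *Akr1c6*, *Akr1c20*, *Akr1d1*, *Fmo2* and *Adh7* rest on few reads.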

Other observations

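*Adh6-ps1*, listed as a long non-coding RNA and therefore not a member, lies among the Adh genes and had 41, 39 and 39 counts in LOXP and 13, 9 and 14 in KO. The groups did not overlap (log2 fold change −1.89 ± 0.27 SE, edgeR quasi-likelihood adjusted p = 0.00192). The protein-coding *Adh6a* and *Adh6b* had no counts in any library. A further entry of the same name, a transcribed pseudogene, had 1 count in all.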
